A study of Mus musculus with 6 samples.

Results

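Transcripts of 10 genes of the insulin-like growth factor 1 (IGF1) axis were read in the mouse aorta, namely Igf1, the receptors Igf1r, Igf2r and Ghr, and the binding protein genes Igfbp2, Igfbp3, Igfbp4, Igfbp5, Igfbp6 and Igfbp7. They were taken by their symbols from a table of reads counted per gene. Each of the 10 was found once among its 55335 rows, and all 10 were among the 16612 genes left by a filter on low counts. The young group held wild-type C57BL/6 mice (written c57b6l in the labels) aged 6 weeks, and the aged group held mice of the same strain and genotype aged 6 months, with 3 mice and 3 libraries in each. The study's methods describe all mice as male, and describe removal of the fat around the vessel under a microscope. The word aged is the study's name for mice that were 6 months old.

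IGF1 is a secreted growth factor made in the liver and, locally, in many tissues, where growth hormone acting on its receptor Ghr is a main stimulus of its synthesis. It signals through the tyrosine kinase Igf1r, while Igf2r carries IGF2 and lysosomal enzymes to lysosomes and so clears the ligand. IGF binding proteins hold IGFs in blood and matrix, where they can block or prolong access to the receptor, and proteases such as PAPP-A release the ligand again. In the vessel wall, IGF1 is known as a survival and growth signal for smooth muscle cells.

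Counts per library summed to between 31049632 and 45832185. In the tissue check, all 7 smooth muscle markers were detected, at a summed 28447 to 40812 CPM, where CPM is a gene's count relative to its library total after TMM scaling. Young replicate 1 stood apart, with Xist at 305.6 CPM against at most 0.636 elsewhere and the Y-linked Ddx3y at 1.09 CPM against at least 44.8, which goes against the description of all mice as male. It also had 2208 counts of the cardiac gene Myl2, against at most 8 in any other library. Mitochondrial transcripts took 14.9% to 21.2% of counts in young and 23.1% to 30.4% in aged libraries. Aged replicate 2 lay among the young libraries on the first principal component and had 1422 CPM of the brown fat gene Ucp1, against 45.2 to 361 CPM elsewhere. Values without either library stand beside the results they touch most.

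Per gene length and by the mean over the 6 libraries, transcripts of the binding proteins, apart from Igfbp3, were more abundant than those of the ligand and its receptors. Igfbp2 was an exception in young replicate 1, where its 3.86 FPKM lay below Igf1 and all 3 receptors. The unit here is FPKM, in which the authors scaled reads for gene length and library size. Igfbp7, a secreted protein of vessel matrix with low affinity for IGFs, had the highest level, from 967 to 1485 FPKM over the 6 libraries, and its range did not touch that of any other member. Igfbp4 followed at a mean of 124 FPKM, Igfbp5 at 92.7, Igfbp6 at 56.7 and Igfbp2 at 21.8. The ranges of these neighbours overlapped, and Igfbp4 was above Igfbp5 in 4 of 6 libraries. Igf2r (7.32 FPKM), Ghr (6.80), Igf1 (6.26) and Igf1r (3.85 to 6.63) lay close together with overlapping ranges, although within each library Igf1r was below Igf2r. Igfbp3, the main carrier of IGF1 in blood, was lowest at 0.485 to 2.56 FPKM and stayed below Igf1r in every library.

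**Figure D1:**
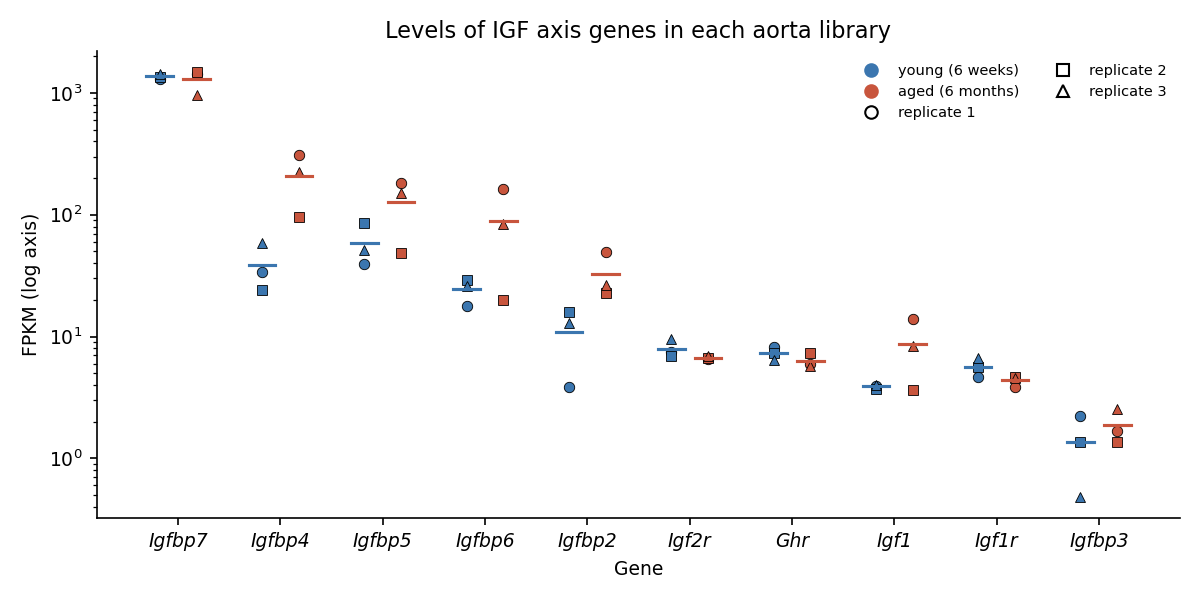
FPKM of the 10 genes on a log axis in each library, with young libraries in blue, aged libraries in red, 1 symbol per replicate and a bar at the group mean. Igfbp7 stands above all others at 967 to 1485 FPKM, and the red symbols of Igfbp4 lie above every blue one.

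The genes lie at separate places in the genome, apart from Igfbp2 and Igfbp5. In GENCODE M21 on GRCm38, Igfbp2 (chr1:72824503-72852474) and Igfbp5 (chr1:72857932-72874884) point towards each other with 5457 bases between their ends. Igf1 lies at chr10:87858265-87937042, Igf1r at chr7:67952827-68233668, Igf2r at chr17:12682406-12769664 and Ghr at chr15:3317760-3583492. Igfbp3 lies at chr11:7206086-7213923, Igfbp4 at chr11:99041244-99054392, Igfbp6 at chr15:102144362-102149511 and Igfbp7 at chr5:77349240-77408041. Overlapping genes could share reads, since no source used here states whether strand was used in counting. The noncoding RNA Airn runs against Igf2r over 28354 bases and had 175 to 398 counts, against 2238 to 3557 for Igf2r. Igf1os overlaps Igf1 on the other strand with at most 9 counts, and Polr2b shares 85 bases with the end of Igfbp7. No annotated gene overlaps Igf1r, Ghr or the other binding protein genes.

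The promoters of 4 binding protein genes are shown because these genes had either the largest differences with age (Igfbp2, Igfbp4 and Igfbp6) or the highest level with almost no difference (Igfbp7). Each sequence is the 250 bases before the RefSeq start on GRCm38.p6, read 5′ to 3′ on the gene's strand. Capitals mark matches on either strand to any of 6 motifs, and overlapping matches were not found in these windows. The motifs searched were TATAAA for the TATA box, CCAAT for NF-Y, GGGCGG for Sp1 and CACGTG for the E-box. The other two were TTCNNNGAA for STAT5 and GTAAACA for FoxO factors.
Igfbp2 (chr1:72824230-72824479, plus strand): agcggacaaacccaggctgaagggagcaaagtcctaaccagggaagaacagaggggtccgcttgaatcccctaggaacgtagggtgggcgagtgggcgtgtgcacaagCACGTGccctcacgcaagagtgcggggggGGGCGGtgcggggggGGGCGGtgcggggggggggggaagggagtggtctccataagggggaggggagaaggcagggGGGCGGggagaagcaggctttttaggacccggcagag
Igfbp4 (chr11:99040994-99041243, plus strand): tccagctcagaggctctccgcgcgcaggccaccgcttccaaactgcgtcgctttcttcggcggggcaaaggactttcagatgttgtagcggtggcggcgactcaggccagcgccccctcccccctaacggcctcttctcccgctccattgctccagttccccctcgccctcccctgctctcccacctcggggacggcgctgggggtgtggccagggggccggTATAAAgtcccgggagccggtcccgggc
Igfbp6 (chr15:102143936-102144185, plus strand): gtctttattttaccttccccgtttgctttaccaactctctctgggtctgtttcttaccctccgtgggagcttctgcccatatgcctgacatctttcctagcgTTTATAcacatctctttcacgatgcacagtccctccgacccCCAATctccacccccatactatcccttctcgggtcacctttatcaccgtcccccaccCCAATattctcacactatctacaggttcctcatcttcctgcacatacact
Igfbp7 (chr5:77408046-77408295, minus strand): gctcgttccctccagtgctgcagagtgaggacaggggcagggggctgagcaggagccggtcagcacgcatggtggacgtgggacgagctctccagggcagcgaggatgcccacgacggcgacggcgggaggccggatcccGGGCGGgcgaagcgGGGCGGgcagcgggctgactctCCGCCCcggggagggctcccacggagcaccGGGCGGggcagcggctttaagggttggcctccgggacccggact

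TATAAA stood 28 to 23 bases before the start of Igfbp4. The same letters occurred in 12.4% of all 32817 RefSeq promoter windows of this length. GGGCGG was found 3 times before the Igfbp2 start shown and 4 times before Igfbp7, and in 32.7% of all windows. A second RefSeq start of Igfbp2 has the window chr1:72825137-72825386, which holds 65 bases of an Igfbp2 exon, 0 of the motifs and a GC content of 56.4%. Igfbp6 held CCAAT 2 times, which 33.8% of all windows held, and TATAAA 1 time, on the other strand and 148 to 143 bases before the start. These positions refer to the RefSeq start, since the Igfbp6 window ends at base 102144185 and the GENCODE gene begins further on, at 102144362. CACGTG was found 1 time before Igfbp2 and in 6.02% of all windows. TTCNNNGAA was in none of the 4 windows and in 7.01% of all windows, and GTAAACA was in none of the 4 and in 3.16% of all. These windows differed in base composition too, with a GC content of 49.6% before Igfbp6 and 74.0% before Igfbp7, against a median of 52.4%.

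Between young and aged aorta, the question was how each gene of the axis differed with age. With the quasi-likelihood test of edgeR, adjusted by Benjamini-Hochberg over all genes tested, 0 of the 10 members passed the threshold of 0.05, and so did 0% of all genes. At an unadjusted p below 0.05 there were 5 of the 10 members, Igf1, Igfbp2, Igfbp4, Igfbp5 and Igfbp6, against 10.4% of all genes. Without young replicate 1 the members at that p were Igf1, Igfbp2 and Igfbp4, and without aged replicate 1, or with limma on FPKM, they were Igfbp2 and Igfbp4. In the fit to all libraries, all 5 were higher in aged aorta, where 5.56% of all genes were higher and 4.82% lower at that p. DESeq2's Wald test called 3 members at an adjusted p below 0.05, Igfbp2, Igfbp4 and Igfbp6, against 2.26% of genes (1.48% higher and 0.782% lower). The groups did not overlap in CPM for 3 members, Igf1, Igfbp2 and Igfbp4, against 16.5% of genes (7.74% higher and 8.78% lower). Without aged replicate 2, edgeR called Igf1, Igfbp4 and Igfbp6, and 110 genes in all. The median log2 fold change of the 10 genes was 1.00, against 0.02 over all genes tested. The members were chosen with earlier results of these data known, so these counts and medians cannot test the axis as a set.

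**Figure D2:**
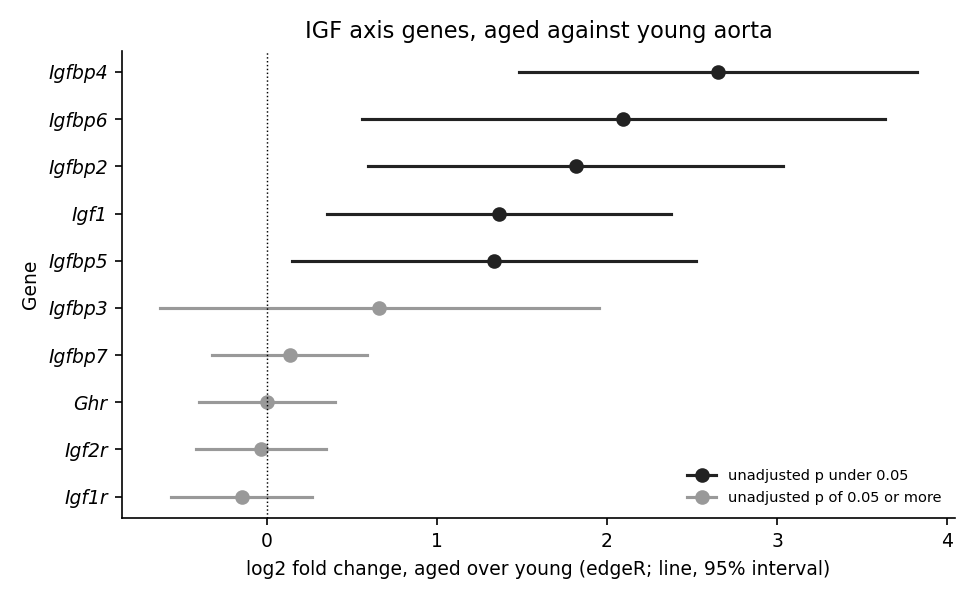
Log2 fold change of aged over young aorta for the 10 genes from the edgeR fit, as points with 95% intervals, black where the unadjusted p was below 0.05. The intervals of Igfbp4, Igfbp6, Igfbp2, Igf1 and Igfbp5 lie above 0, and those of the 3 receptors, Igfbp7 and Igfbp3 include it.

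Igf1, the ligand, was near 40 CPM in each young library, at 41.2, 37.9 and 39.9 CPM. In aged replicates 1, 2 and 3 it stood at 160.9, 41.9 and 103.8 CPM. The groups did not overlap, but aged replicate 2 was within 1 CPM of the highest young library. The fitted difference was 2.58-fold, a log2 fold change of 1.37 with a standard error of 0.43 (edgeR adjusted p = 0.390). By DESeq2 the adjusted p was 0.0538, and without aged replicate 2 the log2 fold change became 1.74 with an adjusted p of 0.0356 by edgeR. Without aged replicate 1 it was 0.88 with an adjusted p of 0.600 by edgeR. Limma on log2 FPKM gave 0.82 with a pseudocount of 1 and 0.93 with 0.1.

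Igfbp4, a soluble inhibitor of IGF action that the protease PAPP-A cleaves, showed the largest difference of the 10 genes. It was at 157, 109 and 261 CPM in young aorta and at 1602, 498 and 1221 CPM in aged aorta. Every aged library was above every young library, and the lowest aged value belonged to aged replicate 2. The fitted difference was 6.29-fold (log2 fold change 2.65, standard error 0.50, edgeR adjusted p = 0.325), and Igfbp4 ranked at position 49 of 16612 genes by its p of 0.00096. DESeq2 gave an adjusted p of 3.79e-06. With any 1 library left out, the log2 fold change stayed between 2.29 and 3.06.

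Igfbp2, which binds IGF2 by preference and also integrins, was at 7.51, 29.8 and 24.0 CPM in young aorta and at 106.0, 49.2 and 60.5 CPM in aged aorta. The groups did not overlap, and young replicate 1 was the lowest library by a wide margin. The log2 fold change was 1.82 with a standard error of 0.52 (edgeR adjusted p = 0.380, DESeq2 adjusted p = 0.0189), and 1.42 without young replicate 1. Igfbp1, the relative that follows insulin in liver, had 3 counts in aged replicate 1 and 0 in the other 5 libraries, and was not tested.

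Igfbp6, which prefers IGF2 over IGF1, was at 20.9, 32.8 and 29.2 CPM in young aorta and at 213.1, 26.2 and 115.3 CPM in aged aorta. Aged replicate 2 fell inside the young range, so the groups overlapped, while the other aged libraries were well above it. The log2 fold change was 2.10 with a standard error of 0.66 (edgeR adjusted p = 0.390, DESeq2 adjusted p = 0.0214). Without aged replicate 2 it was 2.57 with an adjusted p of 0.0354 by edgeR, and without aged replicate 1 it was 1.36 with an adjusted p of 0.607.

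Igfbp5, a binding protein that attaches to matrix, was at 248, 529 and 308 CPM in young aorta and at 1278, 344 and 1117 CPM in aged aorta. Young replicate 2 was above aged replicate 2, so the groups overlapped here as well. The log2 fold change was 1.34 with a standard error of 0.51 (edgeR adjusted p = 0.443), and DESeq2 gave an adjusted p of 0.117. Young replicate 2 and aged replicate 1 were the highest libraries of their groups for Igfbp5, for its neighbour Igfbp2 and also for Igfbp6, which lies elsewhere. Over the 6 libraries, the log2 CPM of Igfbp5 correlated at 0.961 with Igfbp6, 0.905 with Igf1 and 0.827 with Igfbp2.

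In the fit to all libraries, Igfbp7 and Igfbp3 gave no difference beyond the spread between mice. Igfbp7 averaged 1693 ± 40.0 CPM (SD, n = 3) in young and 1860 ± 359 CPM (SD, n = 3) in aged aorta. Its log2 fold change was 0.14 (95% interval -0.32 to 0.59, edgeR adjusted p = 0.820), and it turned to -0.10 when limma was run on log2(FPKM + 1), a scaling that moved the median of all genes to -0.12. Igfbp3 had between 53 and 360 counts, and both of these were young libraries. Its log2 fold change of 0.66 had an interval from -0.63 to 1.95 (edgeR adjusted p = 0.684), so a difference in either direction was not resolved at this depth and number of mice. It was 1.26 without young replicate 1 and 0.27 without young replicate 3. Without both young replicate 1 and aged replicate 2 it was 1.45, with an unadjusted p below 0.05 (edgeR adjusted p = 0.299).

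The receptors differed little. Igf1r was at 82.1, 97.0 and 111.6 CPM in young and at 75.9, 92.1 and 94.7 CPM in aged aorta. Its log2 fold change was -0.15 (95% interval -0.56 to 0.27, edgeR adjusted p = 0.785). Igf2r averaged 75.6 ± 11.5 CPM (SD, n = 3) in young and 74.0 ± 4.51 CPM (SD, n = 3) in aged aorta, with an interval from -0.41 to 0.35 on the log2 scale. Ghr averaged 67.9 ± 9.49 CPM (SD, n = 3) in young and 68.0 ± 8.12 CPM (SD, n = 3) in aged aorta, with an interval from -0.40 to 0.40. The groups of all 3 receptor genes overlapped. The signs of the Igf2r and Ghr differences were not stable, as both turned with the setting.

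Balances between members were read within each library, so that no scaling between libraries enters. In FPKM, the ratio of Igf1 to Igf1r was 0.849, 0.661 and 0.604 in young replicates 1, 2 and 3 and 3.59, 0.771 and 1.86 in aged replicates 1, 2 and 3. The ligand transcript was therefore below that of its receptor in all young libraries and in aged replicate 2, and above it in the other aged libraries. The mean log2 ratio differed by 1.31 (exact two-sided permutation test, p = 0.2, adjusted p = 0.5 over 4 ratios, where 3 mice against 3 cannot go below 0.1). Ghr over Igf1 ran the other way, from 1.62 to 2.07 in young libraries and at 0.427, 2.02 and 0.676 in aged ones (difference of -1.16 on the log2 scale, exact permutation p = 0.3). Without aged replicate 2 the differences were 1.89 for Igf1 over Igf1r and -1.80 for Ghr over Igf1, and without aged replicate 1 they were 0.78 and -0.68. Igf1r over Igf2r lay between 0.592 and 0.818 in all 6 libraries (difference of -0.12 on the log2 scale, exact permutation p = 0.5). Summed binding protein FPKM exceeded Igf1 357 to 407 times in young aorta and 155, 464 and 172 times in aged replicates 1, 2 and 3 (difference of -0.74 on the log2 scale, exact permutation p = 0.4, and -1.24 without aged replicate 2).

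The make-up of the binding protein transcripts differed in the same libraries. Igfbp7 held 93.1%, 89.7% and 90.6% of the summed FPKM of the 6 genes in young aorta, and 67.2%, 88.7% and 66.6% in aged aorta. The share of Igfbp4 was 2.40%, 1.60% and 3.71% in young and 14.4%, 5.75% and 15.3% in aged aorta. Shares of Igfbp7, Igfbp4 and Igfbp2 did not overlap between the groups, and for each the exact two-sided permutation p was 0.1, the smallest that 3 against 3 allow (adjusted p = 0.2 over 6 shares). Without Igfbp7, the 5 others summed to 96.9, 156 and 150 FPKM in young and 704, 189 and 485 FPKM in aged libraries.

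**Figure D3:**
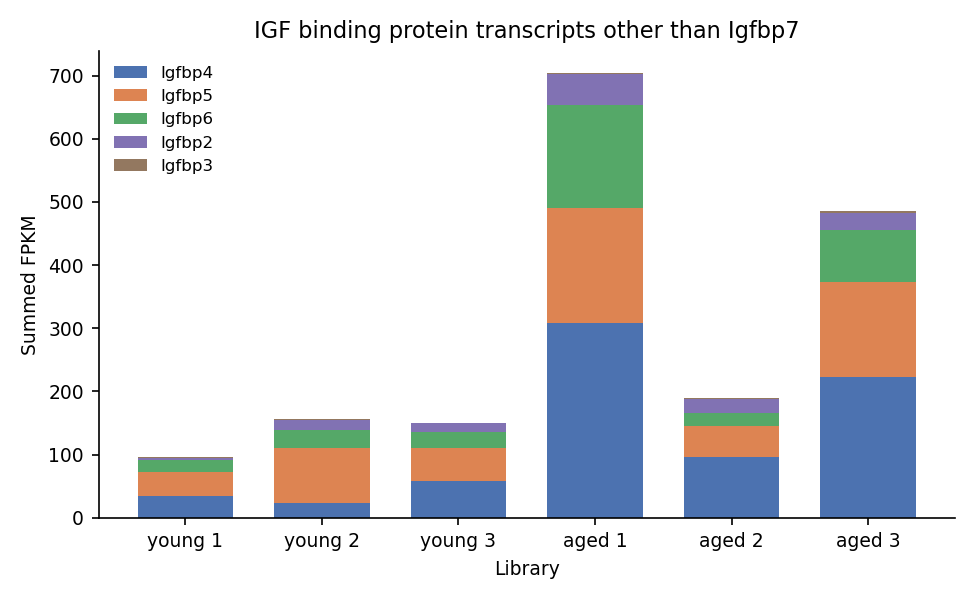
Summed FPKM of the 5 binding protein genes other than Igfbp7, stacked by gene, in each library. The 3 young bars end between 96.9 and 156 FPKM, and the aged bars at 704, 189 and 485 FPKM, with Igfbp4 the largest layer in each aged library.

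Markers of other cell types moved with these genes, and their part in the differences was not tested. In bulk tissue, fewer cells of a type and less RNA per cell cannot be told apart. Of 8 fibroblast markers, all detected in every library, 7 were higher in aged aorta and 4 of these had an unadjusted edgeR p below 0.05. Their summed level was 5670 to 7062 CPM in young libraries and 12941, 4566 and 10075 CPM in aged replicates 1, 2 and 3. This list was split, with log2 fold changes of -0.05 for Col1a2 and 0.17 for Col1a1. The rest lay between 0.71 for Gsn and 1.65 for Dpt. All 8 macrophage markers were higher with an unadjusted p below 0.05, at a summed 106 to 143 CPM in young and 479, 143 and 315 CPM in aged libraries. Both lists were thus lowest among the aged mice in aged replicate 2, as were Igf1, Igfbp2, Igfbp4, Igfbp5 and Igfbp6. Smooth muscle markers went the other way, since all 7 had a fitted log2 fold change below 0 and 3 of them had an unadjusted p below 0.05. Of all genes tested, 5.56% were higher and 4.82% lower at that p. All tested markers of endothelium (7), brown adipocytes (6) and mesothelium (5) were also higher, with 1, 0 and 0 at that p. All 5 tested cardiac markers were lower, 3 of them at that p, and the remaining lists were split. Summed liver markers were 24.0 to 144 CPM, and the library with the most, young replicate 3, had 39.9 CPM of Igf1.

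The 5 members were therefore also read against the mean log2 CPM of each marker list in the same library, a comparison chosen after the values were seen. Against fibroblast markers, Igfbp4 remained apart, with -1.11, -1.69 and -0.61 in young and 0.55, 0.77 and 0.57 in aged libraries on the log2 scale. The 3 aged values lay close together, aged replicate 2 included, and the difference of 1.77 corresponds to 3.41-fold (exact two-sided permutation test, p = 0.1, adjusted p = 0.25 over 15 ratios). The size of this difference depends on the markers listed, since their mean takes in Col1a1 and Col1a2, which differed little. Against macrophage markers, Igfbp4 was 1.31 higher on the log2 scale in aged aorta, again without overlap (exact permutation p = 0.1). Igf1 was 0.35 higher against fibroblast markers, without overlap, and differed by -0.11 against macrophage markers, with overlap (exact permutation p = 0.1 and p = 0.5). Igfbp2, Igfbp5 and Igfbp6 overlapped between the groups against both lists. Against smooth muscle markers, Igf1, Igfbp2 and Igfbp4 were higher by 1.47, 2.26 and 2.89 on the log2 scale without overlap, as in CPM, and this follows from their CPM, since the mean log2 CPM of the smooth muscle markers was lower in every aged library than in any young one. With the summed CPM of the fibroblast list in place of its mean log2 CPM, Igfbp2 and Igfbp6 no longer overlapped. That sum weights abundant genes, and Col1a2, Gsn and Col1a1 were the most abundant of the list in young libraries.

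**Figure D4:**
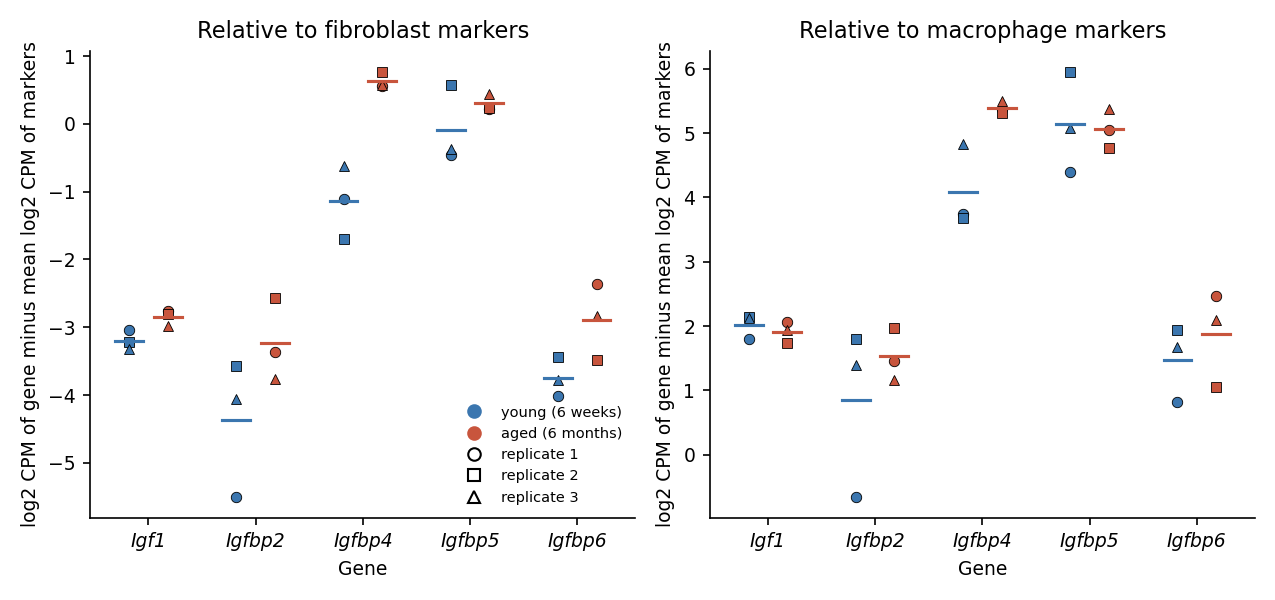
Log2 CPM of 5 genes minus the mean log2 CPM of fibroblast markers (left) and macrophage markers (right) in the same library, 1 symbol per replicate with a bar at the group mean. For Igfbp4 the 3 aged libraries lie together above all young ones in both panels, at 0.55 to 0.77 on the left, while Igf1 overlaps on the right.

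Around these members, the genes that control or transmit the signal were read from 6 lists. Among 12 proteases of binding proteins and their inhibitors, 2 were lower in aged aorta, where 47.9% of all genes were lower, and 2 had an unadjusted edgeR p below 0.05, a share near the 10.4% of all genes. Stc2, stanniocalcin 2, an inhibitor of the PAPP-A proteases, was at 6.13, 8.65 and 10.7 CPM in young and at 22.3 to 38.2 CPM in aged aorta. Unlike Igf1, it was highest in aged replicate 2 (log2 fold change 1.85, standard error 0.29, edgeR adjusted p = 0.259), and DESeq2 called it. Adamts1, a matrix protease, had a log2 fold change of 0.69 (edgeR adjusted p = 0.422) without overlap, and Ctsd, a lysosomal protease and the most abundant of the list, one of 0.42 with overlap. Pappa itself stayed between 0.73 and 2.50 CPM (log2 fold change 0.57). Its relative Pappa2 was at 0.41, 0.63 and 1.60 CPM in young and at 6.32, 0.77 and 2.23 CPM in aged aorta. The groups of Pappa2 overlapped (log2 fold change 1.82, edgeR adjusted p = 0.508).

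In the growth hormone list, 2 of 9 tested genes had an unadjusted p below 0.05, where 10.4% of all genes did. They were Socs2 and Cish, both known as feedback inhibitors of cytokine receptor signalling. Socs2 was at 34.4, 49.7 and 36.8 CPM in young and at 50.8, 103.8 and 75.3 CPM in aged aorta, without overlap (log2 fold change 0.93, edgeR adjusted p = 0.390). Cish had a log2 fold change of 1.27 at 8.67 CPM or less (edgeR adjusted p = 0.424). Stat5b, the transcription factor downstream of Ghr, differed by -0.07. Socs2 was highest in aged replicate 2, where Igf1 was lowest among the aged mice.

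Intracellular signalling genes showed small differences in both directions. Of 11 tested receptor and adaptor genes, 0 had an unadjusted p below 0.05 and 0 were called by DESeq2, with Grb14 at -0.48 and Irs2 at -0.47 the lowest in p and Shc1 at 0.02 the most abundant. Of 20 genes of the PI3K, AKT and TOR arm, Pik3r1, a regulatory subunit of PI3K, had a log2 fold change of 0.49 and Tsc1, an inhibitor of TOR complex 1, one of -0.59 (edgeR adjusted p = 0.379 and 0.390), both without overlap. Akt1, the most abundant, differed by -0.05. Among IGFBP-related secreted proteins, Nov had a log2 fold change of 0.51 (edgeR adjusted p = 0.414), Wisp1 one of 0.92 (edgeR adjusted p = 0.528) and Ctgf, the most abundant, one of -0.08. Over the 6 lists, DESeq2 called only Stc2, 1 of the 12 proteases and inhibitors, where it called 2.26% of all genes.

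**Figure D5:**
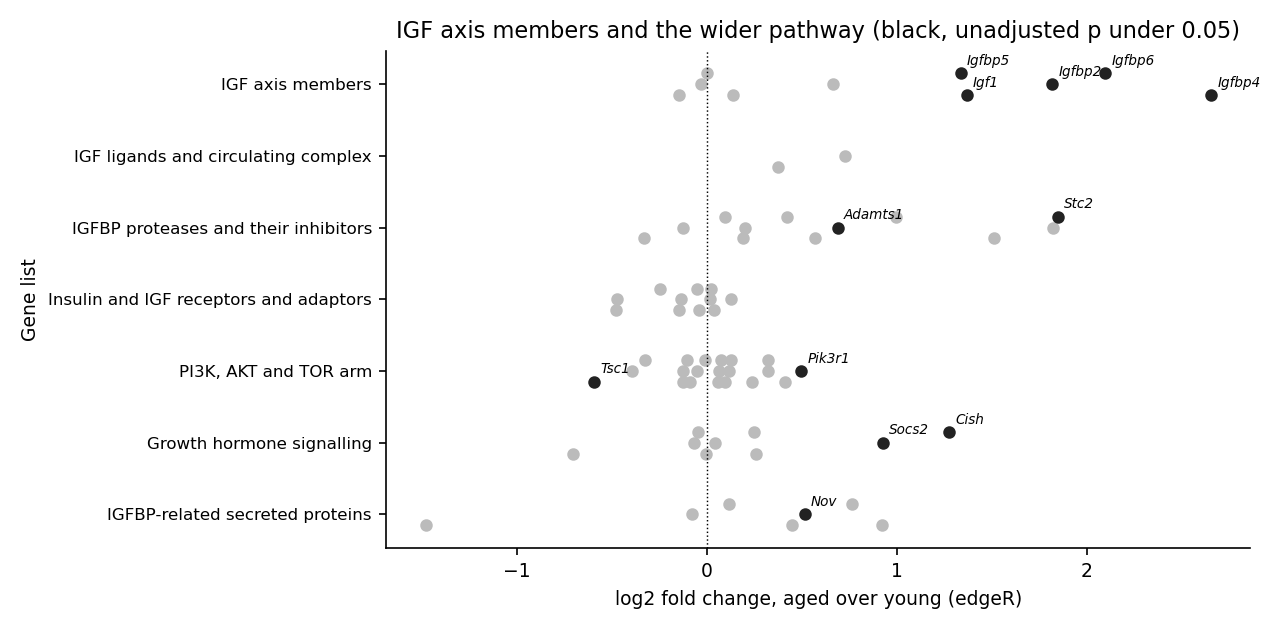
Log2 fold change of aged over young aorta for the members and for the tested genes of 6 lists of the wider pathway, with genes named and drawn in black where the unadjusted edgeR p was below 0.05. Receptor, adaptor and kinase genes gather near 0. Stc2 at 1.85 lies in the range of the members that were higher, as do Pappa2 at 1.82 and Adam12 at 1.51, both with an unadjusted p above 0.05.

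Igf2, the second ligand, had 816, 286 and 417 counts in young and 661, 4 and 1180 counts in aged replicates 1, 2 and 3. The 4 counts of aged replicate 2 came with 225 counts on Gm49394, an annotated gene that covers Igf2 on the same strand and had 0 counts in the other 5 libraries. Added together, the locus had 229 counts there, or 5.67 CPM without TMM scaling, against 8.98 to 36.95 CPM in the other libraries, and was still the lowest. Whether reads were assigned differently there was not tested. Igfals, the other tested gene of that list, stayed at 0.95 CPM or less. No member had such a partner on its own strand in GENCODE M21.

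The genes most like Igf1 over the 6 libraries, among the 9144 genes that averaged 10 CPM or more, were Mfap2 and Jpt1, each with a Pearson correlation of 0.995, and ENSMUSG00000115338, to which the table gives no symbol, with 0.994. Xpo6, Eif4g1 and Synrg were most like Igf1r (0.987, 0.986 and 0.986). For Igfbp7 they were Atp6v1d, Hnrnpk and Trim2 (0.978, 0.970 and 0.964). These values describe 6 libraries that share 2 age groups, and the best of so many genes is high by selection.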

How the data were processed

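RNA from the aorta of 3 young and 3 aged mice was sequenced single-ended, with 1 library per mouse. The authors deposited raw counts per gene and FPKM (counts scaled for gene length and library reads). The submitters' processing notes name build mm10, and the aligner, counting tool and annotation are not given in the sources used here. Of 55335 gene identifiers, 55154 were found in GENCODE M21. Columns were matched to samples by their labels.

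Counts were analysed in R 4.3.3 with edgeR 4.0.16 (filterByExpr with a minimum count of 10 and a minimum total of 15, TMM, quasi-likelihood test of aged against young without covariates, and Benjamini-Hochberg adjustment over 16612 genes). Standard errors were derived from the fold change and its F value. DESeq2 1.42.0 and limma 3.58.1 on log2 FPKM were alternatives. Ratios and shares were tested by exact two-sided permutation. P values of edgeR, DESeq2 and limma set the group difference against the variation between mice, estimated with information shared over genes. An exact permutation p is the share of regroupings of the libraries whose difference is at least as large. The members and lists were chosen with earlier results of these data known. The genes named were all members and, from each pathway list, the 2 with the smallest p and the most abundant by FPKM. Igfbp1, Pappa, Pappa2, Adam12, Insr, Gsk3b and the fibroblast markers Col1a1, Col1a2, Gsn and Dpt were named after their values had been seen.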

Additional observations from a re-analysis of the deposited data

How the results depend on the processing

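The count of members past the threshold was 0 by edgeR and also with RLE size factors, either other filter, limma on FPKM and mitochondrial genes removed. DESeq2 called 3 members and 338 genes. With 1 library left out, between 0 and 3 members and between 0 and 110 genes passed, the upper values without aged replicate 2, and the cause was not tested. Without both young replicate 1 and aged replicate 2, an alternative added after the data were seen, 0 members passed. In that fit 6 had an unadjusted edgeR p below 0.05, namely Igf1, Igfbp2, Igfbp3, Igfbp4, Igfbp5 and Igfbp6. The lowest adjusted p were 0.0711 for Igfbp6 and 0.0734 for Igf1. Igf1, Igf1r, Igfbp2, Igfbp3, Igfbp4, Igfbp5 and Igfbp6 kept their direction in 15 of 15 alternatives.

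Differences near 0 turned. Ghr was at -0.0060 with no filter, -0.0010 with mitochondrial genes removed, -0.19 and -0.21 with limma at a pseudocount of 1 and 0.1, and between -0.10 and 0.12 with 1 library left out. Igfbp7 was at -0.10 with either pseudocount, and Igf2r lay between -0.12 and 0.10 with 1 library left out. Limma moved the median of all genes to -0.12 and -0.19. The Igfbp3 share of binding protein FPKM differed by -0.022 percentage points on counts and by -0.013 to 0.052 with 1 library left out, and the Igfbp4 share by 18.2 points on counts against 9.26 on FPKM. Against macrophage markers, Igfbp2 lay between -0.067 and 1.16 and Igfbp5 between -0.45 and 0.33 with 1 library left out. Against summed fibroblast markers, Igf1 differed by 0.71.

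With the replicate number as a block, 0 genes and 0 members passed, and Igf1, Igfbp2 and Igfbp4 had an unadjusted p below 0.05, with log2 fold changes of 1.17, 1.90 and 2.58. The deviations of same-numbered libraries correlated at 0.077, 0.142 and 0.142, and no label ties them to a shared animal or batch.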

Other observations

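Other genes of the wider pathway had libraries far from the rest in both age groups. Gsk3b, a kinase that AKT inhibits, had only 275 counts in young replicate 1 and 186 in aged replicate 1, where the remaining 4 libraries had 1649 to 2217. Insr, the insulin receptor, had 259 counts in aged replicate 1 and between 1224 and 3730 elsewhere. The counting tool is not given in the sources used here, and whether reads of Gsk3b and Insr were assigned to other gene entries in these libraries was not tested. Endothelial markers summed to 1710 CPM in aged replicate 3, against 353 to 499 CPM in the other libraries, while Igfbp7 and Igfbp3 were at 1447 and 9.98 CPM there.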
